A study of Felis catus with 6 samples.

Results

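This report describes 45 genes of muscle filaments, calcium handling and muscle energy supply in the oral mucosa of cats with feline chronic gingivostomatitis (FCGS), out of 21529 gene identifiers measured. Genes were chosen by symbol (families such as myosins MYH, MYL and MYBP, troponins, tropomyosins, alpha-actinins and M-band proteins, plus single genes such as CKM, MB and DES) among the genes that the study lists for a change of 2-fold or more between the tissues. Of these 45, 41 belong to skeletal muscle and 4 share a family name only: MYH11 and LMOD1 of smooth muscle, and MYH10 and ACTN1 of the non-muscle cytoskeleton. The choice used the contrast of FCGS lesion with healthy mucosa, so that contrast is given for these genes as a description and supports nothing. Gene names were known only for 1930 identifiers, all from that list of changed genes. Other muscle genes, such as ACTA1, TTN, PGAM2 and TRDN, were not analysed here.

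Messenger RNA was measured in 6 libraries from 3 cats, named Bart, Jerome and Sadie, each with 1 biopsy of an FCGS lesion (the labels' diseased tissue) and 1 of adjacent healthy mucosa. All 3 were cats with FCGS, so the healthy mucosa came from diseased animals; the study describes its FCGS cats as edentulous, negative for FIV and FeLV, receiving buprenorphine and not receiving immunosuppressive drugs or antibiotics. The sources used here do not give the ages of these 3 cats. The biopsies were full-thickness pieces from beside the palatoglossal folds, although the labels call the tissue gingival. Values are FPKM, that is fragments scaled by transcript length and library size. Comparisons of levels between genes depend on the annotation and the division of reads among similar genes, which the sources used here do not give. Where values of the 3 cats stand together, they are in the order Bart, Jerome, Sadie. The deposited FPKM summed to between 1382122 and 1903773 per library.

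Skeletal muscle fibers shorten when myosin thick filaments pull on actin thin filaments within the sarcomere, the unit bounded by Z-discs and held at its middle by the M-band. Calcium released from the sarcoplasmic reticulum binds troponin, which moves tropomyosin and exposes actin to myosin. Fast and slow fibers use different paralogs of most of these proteins, so the ratio of the paralogs reports the fiber type. Palatoglossus and other striated muscles lie beneath the oral mucosa in this region.

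Skeletal muscle transcripts were abundant in 3 of the 6 biopsies: the lesions of Jerome and Sadie and the healthy mucosa of Sadie. CKM, the cytosolic creatine kinase that buffers ATP in muscle, measured 0.937, 1234 and 1041 FPKM in the lesions, against 0.528, 1.33 and 716 FPKM in healthy mucosa. The lesion of Bart therefore held as little CKM as the healthy mucosa of Bart and Jerome, and the groups overlapped. Of the 41 skeletal genes, 39 had their 3 highest values in those 3 libraries. That pattern was shared by 6.33% of the 13327 identifiers with at least 1 FPKM in 3 or more libraries. The 3 libraries were picked from these same values. The genes, unlike all identifiers, were chosen for a 2-fold difference between the tissues, so the contrast of shares is a description. In bulk tissue, more muscle cells and more RNA per muscle cell cannot be told apart.

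**Figure D1:**
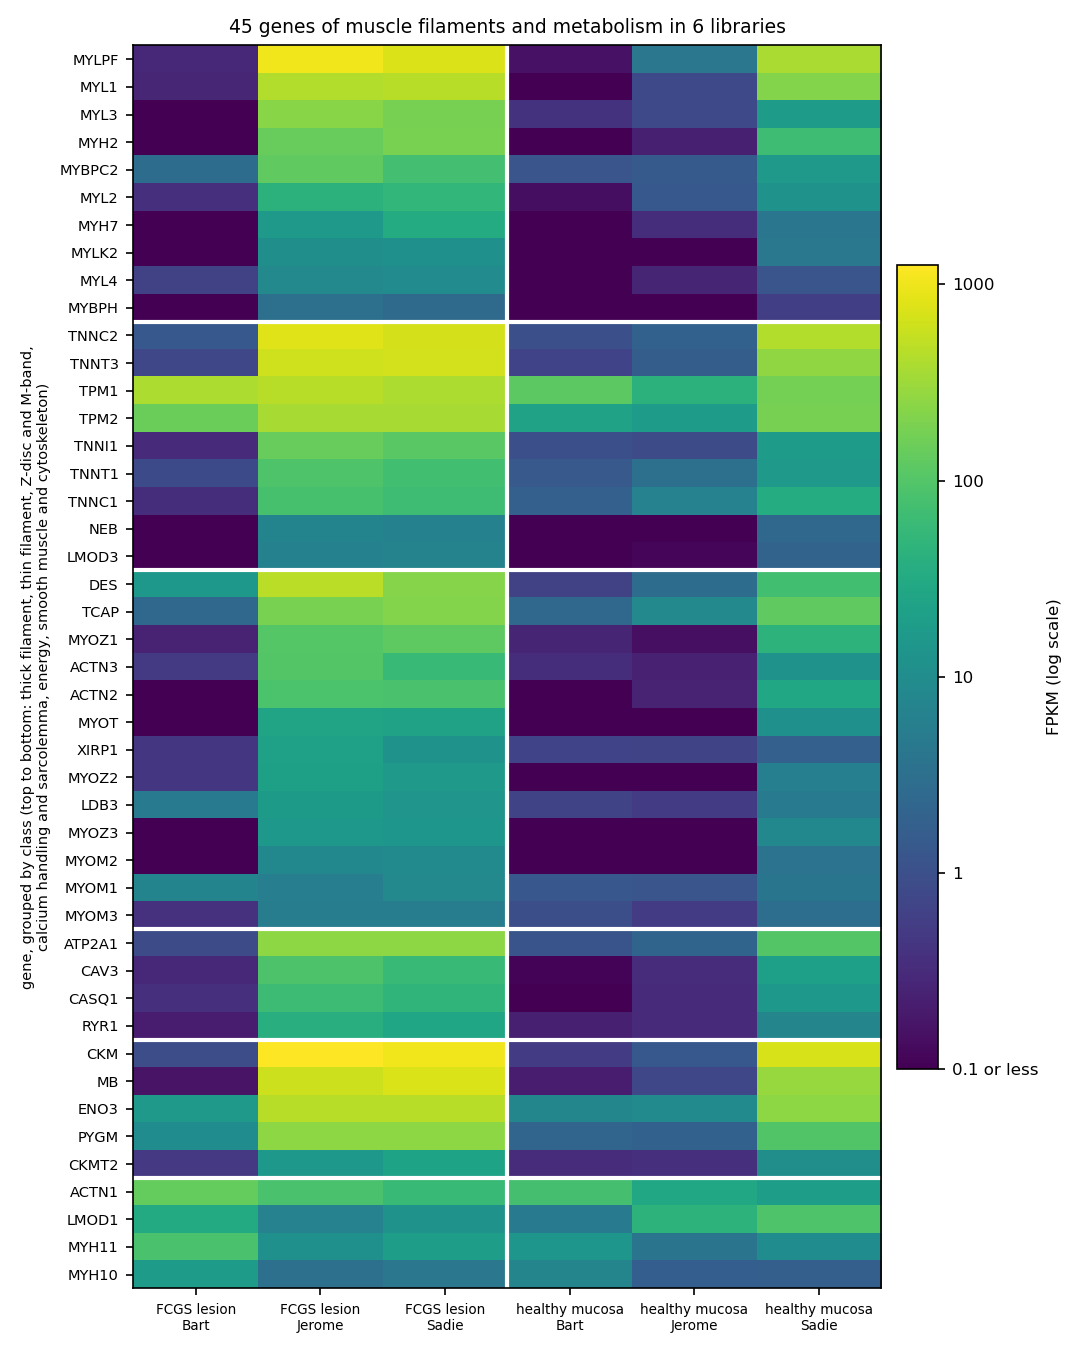
FPKM (colour, log scale, values of 0.1 or less drawn alike) of the 45 genes in the 3 FCGS lesion libraries and the 3 healthy mucosa libraries, with genes grouped by class between white lines. For 39 of the 41 skeletal genes the 3 brightest cells of the row are the lesions of Jerome and Sadie and the healthy mucosa of Sadie, while no gene of the last block (ACTN1, LMOD1, MYH11, MYH10) has this order.

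Taken as markers of skeletal muscle were 9 of the members (CKM, MB, MYH2, MYH7, MYLPF, TNNT3, TNNC2, ACTN3 and RYR1). These markers summed to 4.28, 4630 and 4188 FPKM in the lesions, against 3.25, 10.9 and 2160 FPKM in healthy mucosa. Every marker was at or above 16.7 FPKM in the lesions of both Jerome and Sadie and at or above 4.01 FPKM in healthy mucosa of Sadie. In Bart, 8 of the 9 were below 1 FPKM in the lesion and 8 in the healthy mucosa, and none was above 1.36 FPKM. The healthy mucosa of Jerome was low as well, with 5 markers below 1 FPKM and a highest value of 4.16 FPKM (MYLPF). By these markers the label of skeletal muscle holds for 3 biopsies, and in the other 3 the markers were at or near the floor. All 9 are members and were picked with earlier results of these data known, so they give the label no separate support.

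All 41 skeletal genes together made up 0.0446%, 0.494% and 0.470% of all FPKM in the lesions, against 0.0116%, 0.00616% and 0.209% in healthy mucosa. The tropomyosins TPM1 and TPM2, which non-muscle cells also make, supplied most of what the lesion of Bart held: 547 of its 616 FPKM. Without them the shares were 0.00502%, 0.448% and 0.424% in the lesions, against 0.00195%, 0.00291% and 0.189% in healthy mucosa, a sum chosen after seeing the data. Across the 41 genes the median level was 0.359, 90.9 and 67.4 FPKM in the lesions, against 0.332, 0.702 and 16.6 FPKM in healthy mucosa.

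Among thick filament genes, the fast light chains MYLPF and MYL1 stood highest. MYLPF, the regulatory light chain of fast myosin, measured 0.293, 1043 and 779 FPKM in the lesions, against 0.157, 4.16 and 374 FPKM in healthy mucosa. MYL1, the essential light chain of fast myosin, measured 0.271, 420 and 456 FPKM in the lesions, against 0.0717, 0.808 and 221 FPKM in healthy mucosa. For MYH2, the heavy chain of fast IIa fibers, the values were 0.0391, 140 and 188 FPKM in the lesions, against 0.0360, 0.227 and 66.5 FPKM in healthy mucosa. All 3 genes were high in the same 3 biopsies and the healthy library of Sadie lay between the 2 high lesions and the low libraries. Heavy chain genes of skeletal muscle are near-identical over long stretches, and the sources used here do not say how reads were divided among them, so the level of MYH2 is uncertain.

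The slow thick filament genes had the same 3 high libraries, each at a lower level there than its fast paralog. MYH7, the heavy chain of slow fibers, measured 0.0107, 16.7 and 32.7 FPKM in the lesions, against 0.0562, 0.342 and 4.01 FPKM in healthy mucosa. MYL2, the slow regulatory light chain, measured 0.351, 43.1 and 52.0 FPKM in the lesions, against 0.142, 1.36 and 12.9 FPKM in healthy mucosa. MYL3, the slow essential light chain, reached 0.0848, 236 and 185 FPKM in the lesions, against 0.402, 0.805 and 18.6 FPKM in healthy mucosa. Both high lesions thus exceeded the healthy mucosa of Sadie by far more for MYL3 than for MYL1. MYL4, the essential light chain of embryonic and atrial myosin, measured 0.611, 8.37 and 9.58 FPKM in the lesions, against 0.0491, 0.261 and 1.20 FPKM in healthy mucosa.

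The remaining thick filament genes bind or modify myosin. MYBPC2, the myosin-binding protein C of fast fibers, measured 2.84, 125 and 73.7 FPKM in the lesions, against 1.19, 1.45 and 16.6 FPKM in healthy mucosa. MYLK2, the light chain kinase of skeletal muscle, measured 0.0858, 11.2 and 11.4 FPKM in the lesions, against 0 (listed), 0.0602 and 4.37 FPKM in healthy mucosa. MYBPH, myosin-binding protein H, was the weakest member at 0.0849, 3.22 and 2.64 FPKM in the lesions, against 0.0888, 0 (listed) and 0.575 FPKM in healthy mucosa. It was the only one of the 45 genes that did not reach 1 FPKM in 3 libraries and was therefore not tested.

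Troponin, the calcium switch of the thin filament, followed the same pattern in the 5 of its genes that were among the members. TNNC2, the calcium-binding subunit of fast fibers, measured 1.36, 803 and 687 FPKM in the lesions, against 1.01, 1.87 and 425 FPKM in healthy mucosa. TNNT3, the fast subunit that binds tropomyosin, measured 0.759, 636 and 650 FPKM in the lesions, against 0.676, 1.64 and 262 FPKM in healthy mucosa. The healthy mucosa of Sadie held over 100 times the level of the other healthy libraries for both genes. TNNI1, the inhibitory subunit of slow fibers, measured 0.309, 142 and 111 FPKM in the lesions, against 0.985, 0.855 and 17.6 FPKM in healthy mucosa. TNNT1, the slow counterpart of TNNT3, measured 0.827, 93.4 and 71.1 FPKM in the lesions, against 1.40, 3.22 and 16.6 FPKM in healthy mucosa. TNNC1, the slow counterpart of TNNC2, differed less between the 2 biopsies of Sadie than the other slow troponins did: it measured 0.347, 80.4 and 67.4 FPKM in the lesions, against 1.82, 6.65 and 34.5 FPKM in healthy mucosa.

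Tropomyosins were the exception among thin filament genes, since they were also high without the other muscle transcripts. TPM1 measured 398, 455 and 401 FPKM in the lesions, against 115, 43.7 and 177 FPKM in healthy mucosa, and TPM2 measured 149, 367 and 369 FPKM in the lesions, against 23.1, 18.0 and 179 FPKM in healthy mucosa. For TPM1 all 3 lesions were alike and lay above all 3 healthy libraries. The lesion of Bart, in which CKM and the troponins were at 1.36 FPKM or less, also held the highest levels of the smooth muscle genes ACTA2 (882 FPKM) and TAGLN (1084 FPKM); the part of smooth muscle in the tropomyosin values was not tested. NEB, the giant protein along the thin filament, and LMOD3, a leiomodin that nucleates actin in skeletal muscle, kept the pattern of the troponins at lower levels: NEB measured 0.0424, 7.18 and 6.31 FPKM and LMOD3 measured 0.0365, 6.31 and 6.86 FPKM in the lesions, against 0.0127, 0.0527 and 2.36 FPKM (NEB) and 0.0299, 0.112 and 2.01 FPKM (LMOD3) in healthy mucosa.

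Z-disc and M-band genes numbered 13, with a median of 0.437, 22.4 and 16.8 FPKM in the lesions, against 0.344, 0.253 and 8.09 FPKM in healthy mucosa. TCAP, telethonin, which caps titin at the Z-disc, measured 2.34, 187 and 216 FPKM in the lesions, against 2.38, 8.50 and 124 FPKM in healthy mucosa. ACTN2, the alpha-actinin of all fibers, measured 0.0372, 87.2 and 84.0 FPKM in the lesions, against 0.0611, 0.253 and 28.9 FPKM in healthy mucosa, and ACTN3, its counterpart in fast fibers, measured 0.504, 100.02 and 59.9 FPKM in the lesions, against 0.344, 0.238 and 13.0 FPKM in healthy mucosa. MYOZ1, the calsarcin of fast fibers, had 0.244, 105 and 121 FPKM in the lesions, against 0.267, 0.145 and 45.3 FPKM in healthy mucosa. Its slow counterpart MYOZ2 had 0.437, 21.6 and 16.8 FPKM in the lesions, against 0 (listed), 0.0697 and 5.91 FPKM in healthy mucosa. The fast calsarcin MYOZ3, the Z-disc protein MYOT and the M-band proteins MYOM2 and MYOM3 ranged from 5.47 to 24.7 FPKM in the high lesions (Jerome and Sadie), and from 3.01 to 11.6 FPKM in healthy mucosa of Sadie, and all stayed below 1 FPKM in the other 3 libraries.

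A few genes of this class stood out for the lesion of Bart. DES, the intermediate filament protein of every muscle type, measured 15.2, 470 and 230 FPKM in the lesions, against 0.646, 2.81 and 72.7 FPKM in healthy mucosa. LDB3, a PDZ and LIM domain protein of the Z-disc, measured 5.12, 17.0 and 13.6 FPKM in the lesions, against 0.684, 0.523 and 5.16 FPKM in healthy mucosa. MYOM1, which cross-links myosin in the M-band, measured 7.09, 5.75 and 8.42 FPKM in the lesions, against 1.31, 1.21 and 3.98 FPKM in healthy mucosa. Here the lesion of Bart was well above its healthy mucosa, and for MYOM1 the 3 lesions did not overlap the 3 healthy libraries. XIRP1, an actin-binding protein found at muscle attachment and repair sites, behaved otherwise, with 0.450, 22.4 and 12.1 FPKM in the lesions, against 0.660, 0.702 and 1.80 FPKM in healthy mucosa.

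Calcium handling and energy genes repeated the pattern of the filaments. ATP2A1, the calcium pump of the sarcoplasmic reticulum in fast fibers, measured 0.869, 249 and 255 FPKM in the lesions, against 1.17, 2.13 and 101 FPKM in healthy mucosa. RYR1, the calcium release channel, measured 0.207, 38.8 and 25.9 FPKM in the lesions, against 0.228, 0.322 and 7.35 FPKM in healthy mucosa. CASQ1, the calcium store protein, and CAV3, the caveolin of the muscle membrane, ranged from 48.3 to 90.9 FPKM in the high lesions (Jerome and Sadie), and measured 15.6 and 20.5 FPKM in healthy mucosa of Sadie. MB, the oxygen-binding myoglobin, measured 0.162, 619 and 724 FPKM in the lesions, against 0.211, 0.753 and 292 FPKM in healthy mucosa. ENO3, the enolase of muscle, and PYGM, its glycogen phosphorylase, were above 1 FPKM in every library: ENO3 measured 15.8, 463 and 459 FPKM in the lesions, against 7.51, 9.14 and 253 FPKM in healthy mucosa, and PYGM measured 9.93, 256 and 258 FPKM in the lesions, against 2.21, 1.86 and 95.8 FPKM in healthy mucosa. CKMT2, the mitochondrial creatine kinase, was the lowest of this class at 0.479, 15.4 and 24.0 FPKM in the lesions, against 0.332, 0.358 and 10.8 FPKM in healthy mucosa.

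Fast isoforms exceeded slow ones in each of the 3 muscle-rich biopsies, and the slow share was larger in the 2 lesions. Over 6 paralog pairs (MYH2 and MYH7, MYLPF and MYL2, MYL1 and MYL3, TNNC2 and TNNC1, TNNT3 and TNNT1, MYOZ1 and MYOZ2) the fast member held 86.5% of the FPKM in the lesion of Jerome and 87.2% in the lesion of Sadie, against 93.8% in the healthy mucosa of Sadie. The slow share was thus 13.5% and 12.8% in these lesions and 6.22% in that healthy library. All 6 pairs had a smaller fast share in the lesion of Sadie than in the healthy mucosa of that cat, and all 6 had a smaller one in the lesion of Jerome than in the healthy mucosa of Sadie. With a single muscle-rich healthy library the difference has no replicate check and no test was made. In the other 3 libraries both genes were below 1 FPKM in 5 pairs (lesion of Bart), 4 pairs (healthy mucosa of Bart) and 3 pairs (healthy mucosa of Jerome), so no fiber type was read from them.

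**Figure D2:**
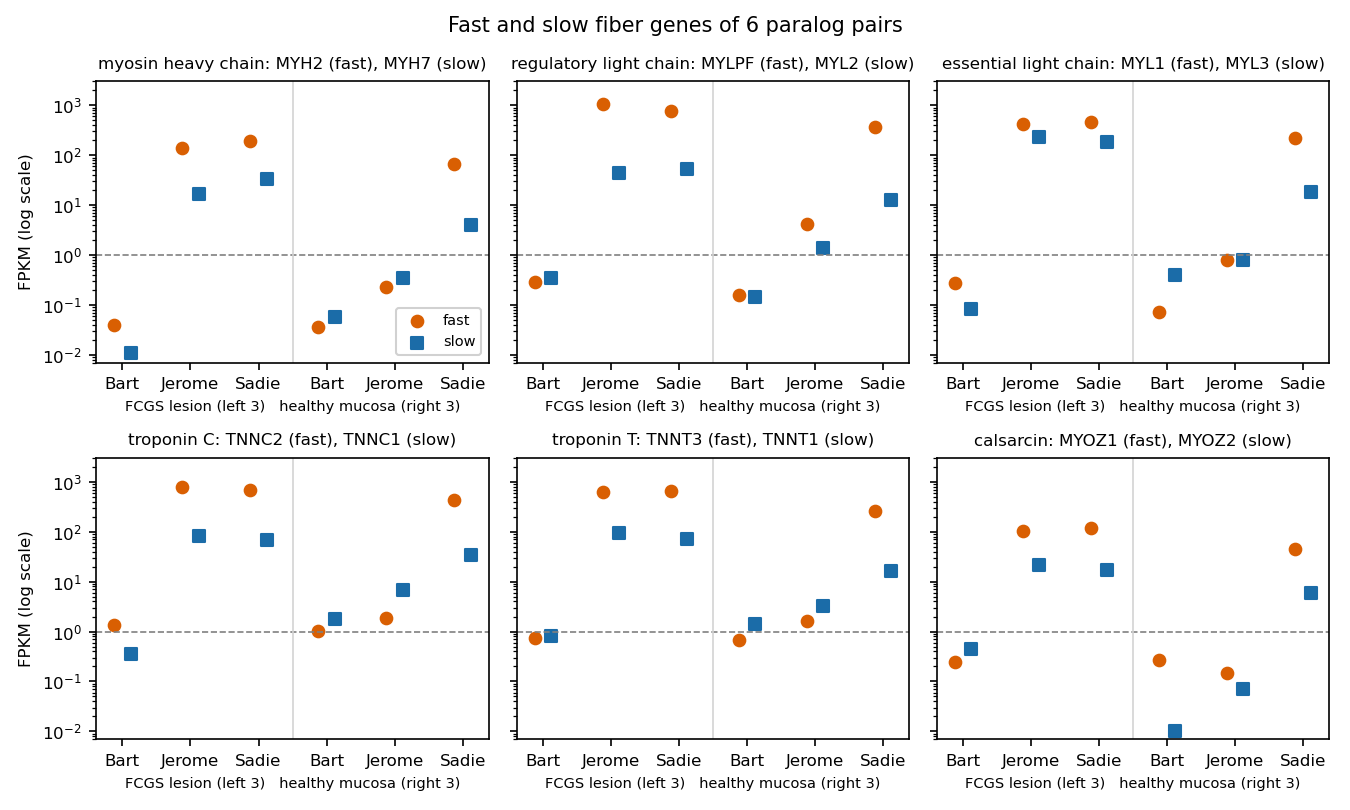
FPKM (log scale) of the fast gene (circles) and the slow gene (squares) of 6 paralog pairs in the 3 FCGS lesion libraries and the 3 healthy mucosa libraries, with a dashed line at 1 FPKM and a value of 0 (MYOZ2 in the healthy mucosa of Bart) drawn at 0.01. Circles lie above squares in every pair in the lesions of Jerome and Sadie and the healthy mucosa of Sadie, and the gap is narrowest for MYL1 and MYL3 in the lesions.

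The pairs did not contribute alike. For the essential light chains MYL1 and MYL3 the fast share was 64.0% in the lesion of Jerome and 71.2% in the lesion of Sadie, against 92.3% in the healthy mucosa of Sadie. For the heavy chains MYH2 and MYH7 it was 89.3% and 85.2% in these lesions, against 94.3% in that healthy library. For troponin C the shares were close, at 90.9% and 91.1% in the lesions, against 92.5% in healthy mucosa, and for the calsarcins they were 82.9% and 87.8% in the lesions, against 88.5% in healthy mucosa. Without the essential light chain pair the fast share was 91.4% (lesion of Jerome) and 91.0% (lesion of Sadie), against 94.1% (healthy mucosa of Sadie), so that pair held much of the difference. The regulatory light chains had the highest fast share in all 3 libraries (96.0% and 93.7% in the lesions, against 96.7% in healthy mucosa), and troponin T had 87.2% and 90.1% in the lesions, against 94.0% in healthy mucosa.

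Within Sadie, the cat whose biopsies both held muscle, every one of the 41 skeletal genes was higher in the lesion than in healthy mucosa, but not by one common factor. The ratio had a median of 2.68 and ran from 1.45 for CKM to 9.94 for MYL3, while the median over all tested identifiers was 0.979. The 5 genes at 5-fold or more were MYL3 (9.94), MYH7 (8.15), MYL4 (7.96), XIRP1 (6.71) and TNNI1 (6.32), of which 3 are slow isoforms. The 7 slow genes had a median ratio of 4.27 (1.96 for TNNC1 to 9.94), against 2.51 for the 13 fast genes (1.62 for TNNC2 to 4.62 for ACTN3) and 2.55 for the 20 genes used by both fiber types. The ranges of slow and fast genes overlapped, since the fast genes ACTN3 and MYBPC2 (4.44) exceeded the slow genes MYOZ2 (2.85) and TNNC1. The ratios use FPKM with no floor, and MYBPH (4.60) alone had a value below 1 FPKM in either biopsy. These are 2 libraries of 1 cat, and the values compare the libraries, not the tissues. The genes were chosen on averages that include both libraries, so their ratios above 1 are a description.

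**Figure D3:**
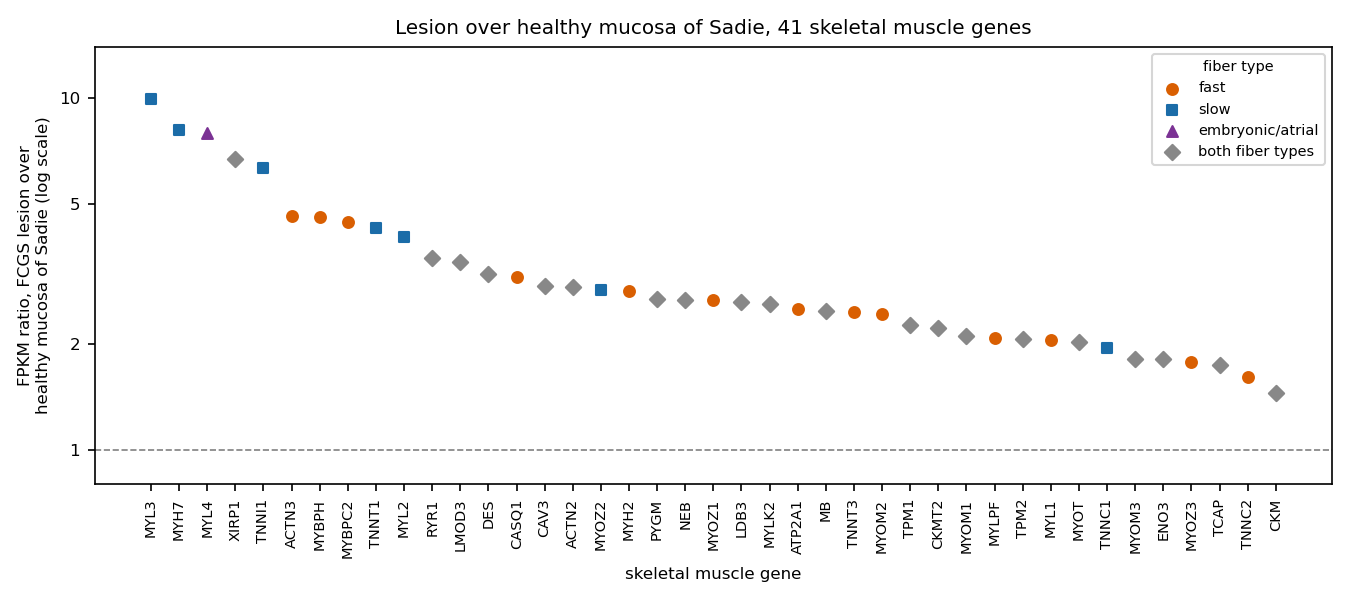
Ratio of FPKM in the FCGS lesion to FPKM in the healthy mucosa of Sadie (log scale) for the 41 skeletal muscle genes in descending order, with colour and shape giving the fiber type; the dashed line is a ratio of 1. MYL3 and MYH7 (slow) and MYL4 (embryonic and atrial) lead at 9.94, 8.15 and 7.96, and TNNC2 and CKM are lowest at 1.62 and 1.45.

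The 2 muscle-rich lesions resembled each other more closely. The ratio of the lesion of Jerome to the lesion of Sadie had a median of 1.05 over the 41 genes and was within 1.5-fold for 34 of them, running from 0.512 (MYH7) to 2.04 (DES). Levels of the 41 genes on the log2 scale correlated at r = 0.986 between these lesions, at 0.970 between the lesion and the healthy mucosa of Sadie, and at 0.950 between the lesion of Jerome and the healthy mucosa of Sadie (Pearson r over genes, not replicates). MYH7, CKMT2 (0.644), MYOM1 (0.683) and MYH2 (0.744) had the lowest ratios, and DES, XIRP1 (1.85) and MYBPC2 (1.70) the highest.

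Cat by cat, the contrast of lesion with healthy mucosa differed widely. After raising values below 1 FPKM to 1, all 41 skeletal genes were at least 2-fold higher in the lesion of Jerome than in healthy mucosa (median log2 difference 4.98, from 1.69 to 9.86). In Sadie, 34 of the 41 were at least 2-fold higher (median 1.40, from 0.54 to 3.31). In Bart, 28 were at the floor in both biopsies, 9 were higher and 4 lower in the lesion, and the 8 at least 2-fold higher were DES, TPM1, TPM2, MYOM1, LDB3, PYGM, MYBPC2 and ENO3. Over all tested identifiers the median log2 difference was between -0.07 and -0.02 in each cat. In Sadie the 75th percentile of their ratio was 1.60 without a floor. The share of all identifiers at 2-fold or more was not computed by cat. Because the members were chosen on averages of these values, the counts by cat are a description.

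Averaged over the cats, the skeletal genes had a median log2 difference of 2.53, against -0.07 for all 13327 identifiers tested. By the rule that chose them, 44 of the 45 genes were at least 2-fold higher in lesions, where 16.9% of all identifiers were, and LMOD1 alone was at least 2-fold lower, where 12.3% were. Nearest to the threshold were LMOD1 (2.01-fold lower), MYBPH (2.04-fold higher) and MYOM3 (2.15-fold higher); genes just below it have no name in the rows used here. This average rested on Jerome: without that cat, 17 of the 45 genes were at least 2-fold higher and the median fell to 0.77 on the log2 scale. Without the lesion of Bart the median was 4.15, without the lesion of Jerome it was 1.54, and without the lesion of Sadie 1.60.

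The spread between cats was as large as these differences. The SD of log2 values within a tissue had a median of 2.85 over the 40 skeletal genes tested, against 0.41 over all identifiers tested, and ran from 0.71 for MYOM1 to 5.62 for CKM. It was above 1.12, the 90th percentile of all identifiers, in 38 of the 40 genes. These genes were chosen for a 2-fold difference of averages, and all identifiers were not, so the comparison of spreads is a description. Without the lesion of Bart the median SD was 1.75, against 0.34 over all identifiers. With tissue as the only term, limma with Benjamini-Hochberg adjustment called 1 of the 44 members tested higher in lesions and 0 lower. Of all identifiers, 5.31% were called higher and 6.61% lower. At an unadjusted limma p under 0.05 were 4 of the 44 members, against 4213 of the 13327 identifiers. The member called was TPM1 (log2 difference 2.12 ± 0.50 SE, adjusted p = 0.048, n = 3 against 3), whose call was lost on leaving out any single library (limma adjusted p from 0.066 to 0.126). With the cat as a block, limma called 6 members higher (TPM1, MYOM1, LDB3, ACTN1, MYH10 and MYH11), where 12.2% of all identifiers were higher, and 3 of these 6 are not skeletal muscle genes. Only TPM1 and MYOM1 had every lesion above every healthy library, where 16.7% of all identifiers did.

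The 4 genes that share only a family name with the rest followed other libraries. MYH11, the heavy chain of smooth muscle myosin, measured 84.2, 11.6 and 19.9 FPKM in the lesions, against 14.3, 3.80 and 9.75 FPKM in healthy mucosa. MYH10, a non-muscle myosin heavy chain, measured 18.1, 3.28 and 4.19 FPKM in the lesions, against 7.36, 1.66 and 1.75 FPKM in healthy mucosa. ACTN1, the non-muscle alpha-actinin, measured 137, 83.4 and 60.9 FPKM in the lesions, against 77.9, 28.0 and 19.2 FPKM in healthy mucosa. All 3 were highest in the lesion of Bart and higher in the lesion than in the healthy mucosa of each cat. LMOD1, the leiomodin of smooth muscle, ran the other way in Jerome and Sadie, with 31.99, 6.56 and 12.2 FPKM in the lesions, against 4.997, 45.1 and 92.7 FPKM in healthy mucosa.

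**Figure D4:**
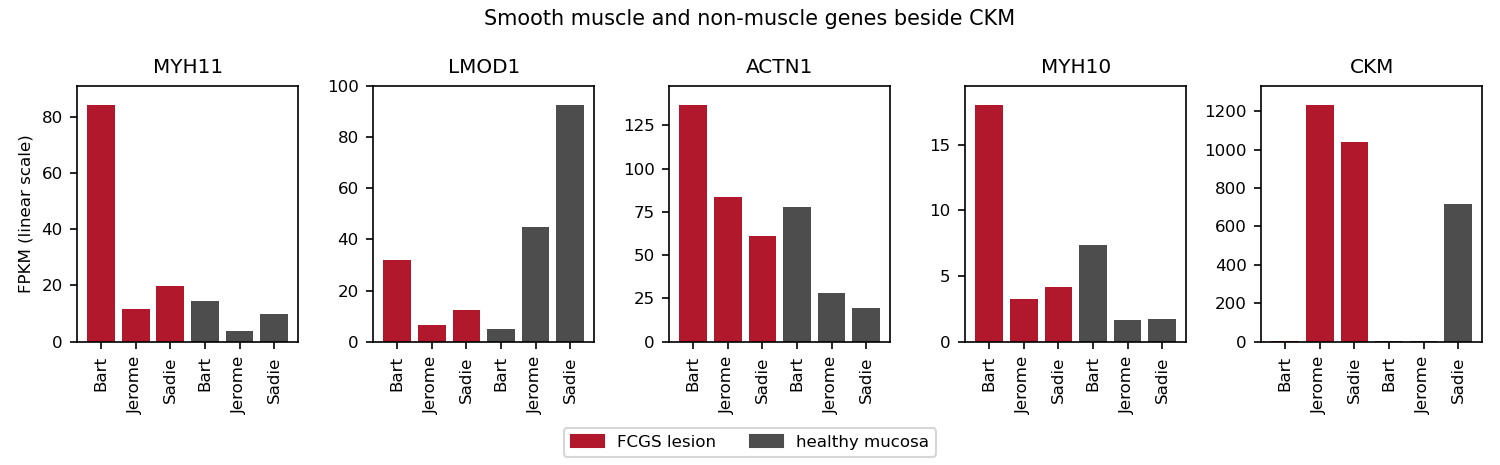
FPKM (linear scale, each panel with its own axis from 0) of MYH11, LMOD1, ACTN1 and MYH10, with CKM for comparison, in the 3 FCGS lesion libraries (red, left) and the 3 healthy mucosa libraries (grey, right). MYH11, ACTN1 and MYH10 are highest in the lesion of Bart (84.2, 137 and 18.1 FPKM), LMOD1 in the healthy mucosa of Sadie (92.7 FPKM), and CKM in the lesion of Jerome (1234 FPKM).

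LMOD1 did not move with the other smooth muscle genes. Of 16 genes listed for smooth muscle, 9 had a name and 8 of these were at least 2-fold higher in lesions, with LMOD1 the exception. All named genes come from the list of changed genes. Over all identifiers tested, 16.9% were at least 2-fold higher, and limma called 5.31% higher (12.2% with the cat as a block). TAGLN, an actin-binding protein of smooth muscle, measured 1084, 303 and 324 FPKM in the lesions, against 123, 54.8 and 96.6 FPKM in healthy mucosa, and was the only one called by limma with tissue alone (log2 difference 2.45, Benjamini-Hochberg adjusted p = 0.047), against 4 with the cat as a block. ACTA2, the actin of smooth muscle, measured 882, 149 and 216 FPKM in the lesions, against 105, 36.5 and 98.9 FPKM in healthy mucosa. Both were highest in the lesion of Bart.

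Other muscle genes with a name, from lists outside the rule, were read in the same way; because names exist only for genes that differed 2-fold, their direction is not evidence. Calls are by limma with tissue alone, followed by the number with the cat as a block where it differs. Of all identifiers tested, 5.31% were called higher and 6.61% lower, against 12.2% and 11.1% with the block. The 3 highest values lay in the lesions of Jerome and Sadie and the healthy mucosa of Sadie for 6.33% of them. Among 26 further genes of the sarcomere and its attachments, 17 had a name, 1 was called higher (CFL2; 3 with the block) and 1 lower (NEBL) by limma, and 11 had their 3 highest values in the lesions of Jerome and Sadie and the healthy mucosa of Sadie. CSRP3, a LIM protein of the Z-disc, measured 0.0905, 138 and 85.0 FPKM in the lesions, against 1.43, 4.04 and 33.3 FPKM in healthy mucosa. ACTC1, the actin of heart and developing muscle, measured 0.425, 47.5 and 46.6 FPKM in the lesions, against 0.863, 2.63 and 18.8 FPKM in healthy mucosa. NRAP and SMPX, proteins of muscle attachment sites, reached 39.6 and 45.3 FPKM at most.

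Excitation and calcium handling genes numbered 25, of which 16 had a name, 2 were called higher by limma (JPH1 and CAMK2A; 5 with the block) and 0 lower, and 10 had the same 3 highest libraries. FXYD1, a regulator of the sodium pump, was high in every lesion (111, 111 and 120 FPKM, against 29.2, 51.2 and 106 FPKM in healthy mucosa), and BIN1, which shapes the transverse tubules, measured 20.8, 78.2 and 65.8 FPKM in the lesions, against 15.7, 15.3 and 47.2 FPKM in healthy mucosa. CAMK2B, a calcium-dependent kinase, was highest in the lesion of Sadie (9.85, 34.4 and 77.1 FPKM in the lesions, against 0.657, 6.53 and 4.22 FPKM in healthy mucosa). STAC3, an adaptor of the calcium channel of skeletal muscle, measured 3.06, 42.3 and 27.8 FPKM in the lesions, against 1.33, 0.747 and 13.9 FPKM in healthy mucosa.

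Regulators of muscle formation and genes of the neuromuscular junction followed the muscle-rich biopsies only in part. Of the named ones, 2 of 6 regulators (MYOG and MYF6) and 1 of 3 junction genes (CHRNA1) had the same 3 highest libraries. MYOG, myogenin, a transcription factor of differentiating muscle cells, measured 0 (listed), 14.9 and 17.4 FPKM in the lesions, against 0 (listed), 0 (listed) and 2.13 FPKM in healthy mucosa. MYF6, another factor of that family and named after its values were seen, measured 0 (listed), 13.9 and 14.2 FPKM in the lesions, against 0 (listed), 0 (listed) and 2.47 FPKM in healthy mucosa. In Sadie the lesion exceeded healthy mucosa 8.15-fold for MYOG and 5.76-fold for MYF6. Both lay within the range of the 41 skeletal genes, which ran from 1.45-fold (CKM) to 9.94-fold (MYL3) with a median of 2.68. Of 16 regulators 6 had a name, and limma with tissue alone called only MEF2C higher (20.1, 28.9 and 37.6 FPKM in the lesions, against 4.21, 5.85 and 6.24 FPKM in healthy mucosa; Benjamini-Hochberg adjusted p = 0.021) and 0 lower, against 3 higher with the block. TEAD4 was highest in the lesion of Bart (39.9 FPKM) and EYA2 in the healthy mucosa of Jerome (34.3 FPKM), so neither followed the skeletal genes. Of 11 junction genes 3 had a name. CHRNA1, a subunit of the acetylcholine receptor, measured 0 (listed), 11.1 and 4.45 FPKM in the lesions, against 0.0495, 0.0402 and 1.13 FPKM in healthy mucosa. CHRNB1 measured 6.77, 18.1 and 25.2 FPKM in the lesions, against 3.07, 5.15 and 4.13 FPKM in healthy mucosa. NCAM1 measured 2.57, 4.70 and 8.06 FPKM in the lesions, against 0.495, 1.15 and 1.34 FPKM in healthy mucosa. It was called higher by limma (2 genes with the block). For CHRNB1 and NCAM1 the lesion of Bart was above the healthy mucosa of Sadie.

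**Figure D5:**
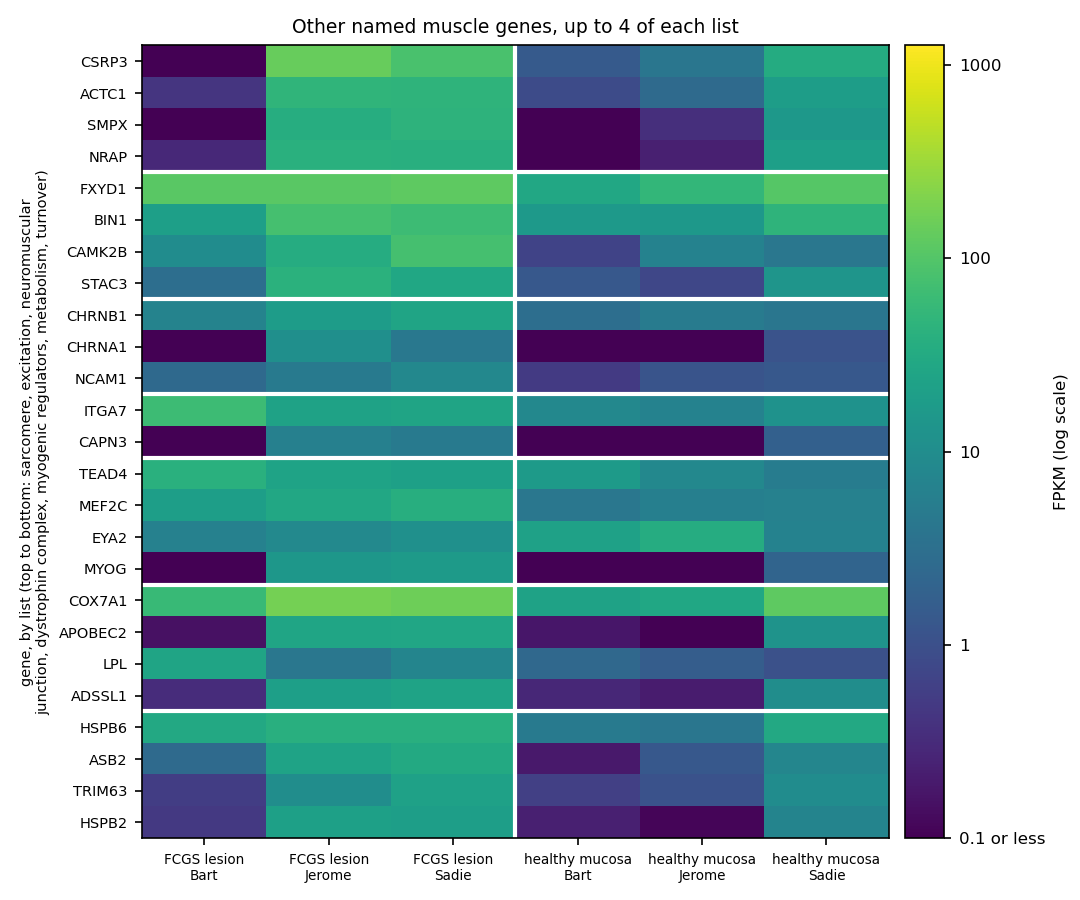
FPKM (colour, log scale, values of 0.1 or less drawn alike) of the 25 named muscle genes outside the rule that are highest in their lists, in the 3 FCGS lesion libraries and the 3 healthy mucosa libraries, with lists separated by white lines. SMPX, NRAP, MYOG, APOBEC2 and HSPB2 exceed 1 FPKM in both biopsies of Sadie and the lesion of Jerome and are below 1 FPKM in the other 3, while FXYD1, ITGA7, TEAD4, EYA2 and LPL are above 1 FPKM in all 6.

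Metabolic and turnover genes were mixed. Of 29 metabolic genes 13 had a name, 2 were called higher by limma (PPP1R3C and EPM2A; 5 with the block) and 0 lower, and 8 had the same 3 highest libraries. COX7A1, a muscle form of a cytochrome c oxidase subunit, measured 57.1, 175 and 156 FPKM in the lesions, against 22.7, 27.9 and 119 FPKM in healthy mucosa, and LPL, lipoprotein lipase, was highest in the lesion of Bart (24.97 FPKM). APOBEC2 and ADSSL1, an enzyme of muscle purine synthesis, reached 26.6 and 24.3 FPKM in the lesion of Sadie. Of 19 turnover and chaperone genes 9 had a name, 1 was called higher (KLHL30) and 0 lower, and 8 shared the 3 highest libraries. TRIM63, a ubiquitin ligase of atrophying muscle, measured 0.565, 10.3 and 22.0 FPKM in the lesions, against 0.598, 1.06 and 9.81 FPKM in healthy mucosa. HSPB6, a small heat shock protein, was also present in the lesion of Bart (29.9 FPKM). In the dystrophin complex 2 of 11 genes had a name and limma called 0 higher and 0 lower (1 at an unadjusted p under 0.05, and 1 higher with the block). ITGA7, the laminin receptor of muscle, was highest in the lesion of Bart at 64.7 FPKM, and CAPN3, a protease of muscle, reached 6.04 FPKM in the lesion of Jerome.

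The named genes whose pattern over the 6 libraries was most like the mean of the 41 skeletal genes were CACNG1, TRIM54, CACNA1S, HSPB2, ADSSL1, SMPX, APOBEC2, NRAP, ADPRHL1, GPD1, MYADML2, TMOD4, BIN1, HFE2 and SMTNL1, with Pearson r from 0.999 to 0.991 on log2 FPKM. These r describe 6 libraries of 3 cats and are set mainly by which libraries are near the floor. CACNA1S, the voltage sensor that opens RYR1, measured 0.00651, 16.0 and 16.2 FPKM in the lesions, against 0.00512, 0.0235 and 6.52 FPKM in healthy mucosa. Of the 53 identifiers at r of 0.99 or more, 21 were members, 16 were other named genes and 16 had no name. An unnamed identifier, ENSFCAG00000003240, measured 0 (listed), 3751 and 2791 FPKM in the lesions, against 0 (listed), 0 (listed) and 1233 FPKM in healthy mucosa, above CKM in the same libraries. Another, ENSFCAG00000024263, measured 0 (listed), 772 and 620 FPKM in the lesions, against 0 (listed), 0 (listed) and 114 FPKM in healthy mucosa. Among members, r ran from -0.36 (MYH10) to 0.998 (CASQ1), and within the skeletal genes it was lowest for TPM1 (0.63), MYOM1 (0.67) and TPM2 (0.86).

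Markers of other cell types also differed between the biopsies, and their part in the muscle values was not tested. The named ones all come from the list of changed genes. Of all identifiers tested, limma called 5.31% higher and 6.61% lower, against 12.2% and 11.1% with the block. Summed FPKM of the 8 named of 8 leukocyte markers was 768, 1134 and 1676 in the lesions, against 142, 318 and 177 in healthy mucosa, with 5 called higher by limma (8 with the block) and 0 lower. Fibroblast markers (5 named of 9, 0 called with tissue alone, 2 at an unadjusted p under 0.05, and 5 higher with the block) summed to 2875, 647 and 757 FPKM in the lesions, against 652, 324 and 299 FPKM in healthy mucosa. Endothelial markers (7 of 7, PECAM1 and PLVAP called higher, 7 with the block, 0 lower) and pericyte markers (4 of 7, 0 called, 3 at an unadjusted p under 0.05, 3 higher with the block) were likewise highest in the lesion of Bart, at 1573 and 591 FPKM. Thus the lesion of Bart, low in skeletal muscle, had the largest sums of stromal and vessel genes.

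Epithelial, adipocyte and gland markers went other ways. Oral epithelium markers (6 of 11 named, 0 called higher and 3 lower) summed to 62.1, 2688 and 627 FPKM in the lesions, against 2657, 260 and 275 FPKM in healthy mucosa; KRT4 made up most of the larger sums and is listed at 0 in the healthy mucosa of Jerome and Sadie. Adipocyte markers (3 of 6, 0 called, 3 at an unadjusted p under 0.05, 2 higher with the block) summed to 773, 3283 and 3429 FPKM in the lesions, against 56.5, 738 and 354 FPKM in healthy mucosa. Nearly all of this sum was CFD, and the other named genes, LPL (24.97 FPKM) and CIDEA (11.2 FPKM), were highest in the lesion of Bart. Salivary gland markers (2 of 10, AGR2 and KRT7, 0 called and 0 at an unadjusted p under 0.05) summed to 1.21, 10.3 and 68.0 FPKM in the lesions, against 2.49, 1.4996 and 8.07 FPKM in healthy mucosa, and AGR2 is listed at 0 in the healthy mucosa of Bart. None of 8 cardiac genes had a name. CFD and the gland sum were thus highest in the lesions of Jerome and Sadie, which were also the highest in skeletal muscle, while LPL and CIDEA were not.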

How the data were processed

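The authors deposited FPKM for each of 6 poly(A)-selected, strand-marked libraries; per the labels' processing notes, bcl2fastq, HISAT, Cufflinks and Cuffnorm were used, and the sources used here do not give versions, a genome build or an annotation. Names were assigned by matching the 6 listed raw values to 1 identifier (5 significant digits), and all 1981 rows matched. Read numbers are not in the files. Each library was compared with the lesion of Sadie over genes above 0 and below 0.1 FPKM in both. The commonest ratio ran from 0.593 (healthy mucosa of Bart) to 0.895 (healthy mucosa of Jerome). Only 6.31% to 16.2% of these genes lay within 0.025 log2 of the commonest ratio. A smaller ratio means more reads only if scaling was by reads alone.

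Values below 1 were raised to 1, log2 transformed and tested with limma 3.58.1 (R 4.3.3; eBayes with trend, two-sided) on 13327 identifiers with 1 FPKM or more in at least 3 libraries, with Benjamini-Hochberg adjustment and a threshold of 0.05. Fold changes on this floored scale understate those of low genes. The script was tested on simulated data. The labels give both biopsies of a pair as the same cat; deviations from tissue means correlated within cats at 0.49 (Bart), 0.20 (Jerome) and 0.41 (Sadie); the lesion of Jerome correlated more with the healthy mucosa of Sadie (0.27). The members were named in full; other genes were named by likeness to the skeletal mean (15) or as the highest in each list (up to 4). CFL2, NEBL, JPH1, CAMK2A, PPP1R3C, EPM2A, KLHL30, MYF6 and the genes of other cell types were named after their values were seen. Members, lists and markers were chosen with earlier results of these data known.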

Additional observations from a re-analysis of the deposited data

How the results depend on the processing

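With 3 cats per tissue the averages follow single animals. Of all identifiers, limma called 707 higher and 881 lower in lesions, against 1622 and 1476 with the cat as a block (the pairing of biopsies) and 205 and 321 with no filter on low values; leaving out 1 library or 1 cat gave 0 to 1049 higher and 0 to 1099 lower. The counts of 0 had 2038 to 3233 identifiers at an unadjusted p under 0.05. Of the members, 1 was called higher, against 6 with the block, 0 with 0.1 FPKM added and no floor, 0 with no filter, 0 with equal library totals, and 0 to 5 on leaving out 1 library or cat (0 to 1 lower). Without the lesion of Bart the 5 were MYL4, NEB, LMOD3, MYH7 and XIRP1, and TPM1 was not called. In that setting limma called 648 of 12998 identifiers higher. At an unadjusted limma p under 0.05 were 34 members, against 4113 of the 12998 identifiers. The members were chosen on this contrast, so these numbers are a description. At least 2-fold lower was 1 member (LMOD1), against 0 with 1 FPKM added, with quantile normalization or with equal library totals, and 0 to 1 on leaving out libraries or cats; 2-fold higher were 42 to 44 under these scalings and 17 (without Jerome) to 44 on leaving out libraries or cats. The skeletal median log2 difference was 2.22 to 2.83 under other scalings and 0.77 to 4.15 on leaving out libraries or cats. Leaving out each pair in turn moved the fast share between 82.4% and 91.4% (lesion of Jerome), 84.9% and 91.0% (lesion of Sadie) and 92.8% and 94.4% (healthy mucosa of Sadie). The block changed no other call of a member. FPKM without read numbers gives no counting error, also for values below 1 FPKM.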
